A study of Homo sapiens with 6 samples.

Results

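Apart from 3 whose proteins are placed elsewhere (MRPS18A, MRPS30 and MRPS36), the genes described here encode proteins of the small subunit of the mitochondrial ribosome. They were taken from the gene table by symbol and biotype, as protein-coding rows whose symbol is MRPS followed by a digit, with DAP3, PTCD3, AURKAIP1 and CHCHD1 added because their proteins belong to the same subunit. The rule used no measured value, and it found 33 of the 14574 genes in the table. All 33 passed the filter on low values, a normalised read count of 1 or more in 2 or more of the 4 libraries compared, and entered the test.

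The study asked which mRNAs outside polysomes depend on LARP1, an RNA-binding protein that holds mRNAs with a 5′ terminal oligopyrimidine (TOP) motif when mTOR signalling is low. The knockout group was 2 RNA-seq libraries from HCT116 cells with LARP1 knocked out, described in the protocols as a pool of cells. The parental group was 2 RNA-seq libraries from HCT116 cells without the knockout. A further 2 libraries, here called TSS libraries, came from the same parental RNA after decapping and ligation of an oligonucleotide at the 5′ end, so they are a second preparation and add no cell sample. HCT116 is an established human colorectal carcinoma line, grown here in DMEM with serum. Every culture, knockout and parental, had received the mTOR kinase inhibitor TAK228 at 250 nM for 48 h, with fresh drug after 24 h, and no untreated library was used. RNA came from the pooled gradient fractions between the 40S and 80S peaks and was depleted of ribosomal RNA. A value is therefore a level in that fraction of a bulk lysate. A lower level in the fraction, a lower level in the whole cell and fewer cells carrying the mRNA cannot be told apart.

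The mitochondrial ribosome translates the few mRNAs encoded in the mitochondrial genome, which specify membrane subunits of the respiratory chain and ATP synthase. Its small subunit pairs 1 ribosomal RNA, made in the organelle from MT-RNR1, with proteins that are all encoded in the nucleus, translated on cytosolic ribosomes and imported. Some of these proteins descend from the bacterial ribosome and others were added in mitochondria.

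The libraries held 19038642 to 26955481 reads, of which 6267820 to 9063478 lay outside genes of the mitochondrial genome. The members together had 8529 to 11544 reads per library, and a single member had between 21 and 1248 reads in a library, so counting error is widest for the lowest members such as MRPS6. LARP1, which checks the genotype labels, had normalised read counts of 356 and 284 in the knockout libraries, against 633 and 770.3 in the parental RNA-seq libraries. LARP1 was lower in both knockout libraries but was not absent (log2 fold change -1.13, SE 0.18, adjusted p = 2.86e-09). Of 8 epithelial markers, 6 were in the table (EPCAM, CDH1, KRT19, KRT18, CDX2 and KRT8), and 3 of them were called lower: EPCAM (log2 fold change -0.93, and -0.62 after subtraction of each library's median), CDH1 (-0.88 and -0.57) and KRT19 (-0.85 and -0.54), all 3 under both scalings. KRT18, CDX2 and KRT8 were not called, at -0.11, -0.01 and 0.12, and KRT8 was called higher (0.43) after that subtraction. EPCAM had 359.8 and 239.7 normalised reads in the knockout libraries, against 576 and 544 in the parental libraries. Of 8 markers of other cell types, CD68 and COL1A1 were in the table. CD68 had 10.7 and 13.7 normalised reads in the knockout libraries, against 191 and 173 in the parental libraries. COL1A1 had 38.2 and 13.0 in the knockout libraries, against 21.5 and 12.2 in the parental libraries. It was not called (log2 fold change 0.44, adjusted p = 0.46). The part of these markers in any result here was not tested.

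The letters at the start of these mRNAs are shown first because TOP motifs are defined there. RefSeq promoter entries (build GRCh38.p14) were found for 32 members, 39 entries in all, with MRPS36 matched through an older symbol, and there was no entry for MRPS28. A start was counted as TOP-like where its first base was C and at least 4 further bases, each C or T, followed without a break. Each line below shows 10 bases before the annotated start and 20 bases from it, 5′ to 3′ on the gene's strand, with the unbroken C and T run that begins at the start in capitals. The first 3 are all the members with a TOP-like entry, MRPS24 has the longest shorter run, and DAP3 and MRPS21 are strongly lowered members without one.
MRPS27: gttggctgttCCTTTTggtacgctccaaga
MRPS33: gagggcgggcCTTCCgggacgagggcgcgt
MRPS2: gggccgggttCCTCTgcgggtgggtccgga
MRPS24: tgtggtacgtCCCgcgctccgcttggccca
DAP3: acccttttttgcagtctcaggacgggcgct
MRPS21: ttccggtagtgagaacccttccggtgggct

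These windows lie at chr5:72320221-72320250 on the minus strand for MRPS27, chr7:141014933-141014962 on the minus strand for MRPS33 and chr9:135499955-135499984 on the plus strand for MRPS2. They lie at chr7:43869498-43869527 on the minus strand for MRPS24, chr1:155689081-155689110 on the plus strand for DAP3 and chr1:150293851-150293880 on the plus strand for MRPS21. The run was 6 bases in MRPS27 and 5 bases in MRPS33 and MRPS2. MRPS33 and MRPS2 each had a second entry with no such run. In DAP3, 9 C or T letters ended immediately before this annotated start, which is itself a G. A second DAP3 entry, with its start at chr1:155689094, had 0 such letters before it. Among uncalled members, 1 entry of MRPS22 had 8 and the entry of MRPS9 had 7.

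In the libraries labelled LARP1 knockout, 14 of the 33 members (42.4%) fell in the non-polysomal fraction and 0 rose, by limma on log2(normalised read count + 1) with Benjamini-Hochberg adjustment over 14561 genes. A gene is called where its adjusted p was under 0.05. Over all genes tested, 25.1% were called lower and 3.77% higher. No member was higher at an unadjusted p under 0.05 either, while edgeR on the recovered reads called 3 higher and DESeq2 called 0 higher. The median log2 fold change of the members was -0.43, against -0.29 for all genes tested. With 1 library left out, the members' median ran from -0.53 (without knockout replicate 1) to -0.28 (without knockout replicate 2). The counts of called members and of all called genes moved as well, and the lone library was assumed to vary like the others. Because the median gene itself was lower in the knockout under the authors' scaling, the same test was repeated on log2 values from which the library's own median had been subtracted, here called centring. After centring, 9 members (27.3%) were lower and 3 (9.09%) were higher, against 16.2% and 14.6% of all genes. The centred median was -0.12 for the members and 0.02 for all genes. By edgeR, 10 members were lower, against 17.9% of all genes, and the 3 higher members stand against 14.6%. By DESeq2, 8 members were lower, against 10.7% of all genes, and the 0 higher members stand against 6.75%.

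Both knockout libraries lay below both parental RNA-seq libraries for 24 members, an ordering that 50.4% of all genes showed. Both lay above for CHCHD1 and MRPS28, an ordering that 12.4% of all genes showed. The other 7 members overlapped. These orderings hold for the authors' scaling and depend on it. After centring, the knockout values were the lower pair for 16 members and the higher pair for 7, while 10 members overlapped. The share of all genes with each centred ordering was not computed, so these centred counts have no background beside them. In the authors' deposited table, whose fold changes run parental over knockout and draw on the TSS libraries as well, 11 members were higher in parental cells at an adjusted p under 0.05, against 24.3% of all genes with a value, and 22 were not called. That table calls AURKAIP1, and it does not call MRPS35, MRPS17, MRPS23 or MRPS30.

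**Figure D1:**
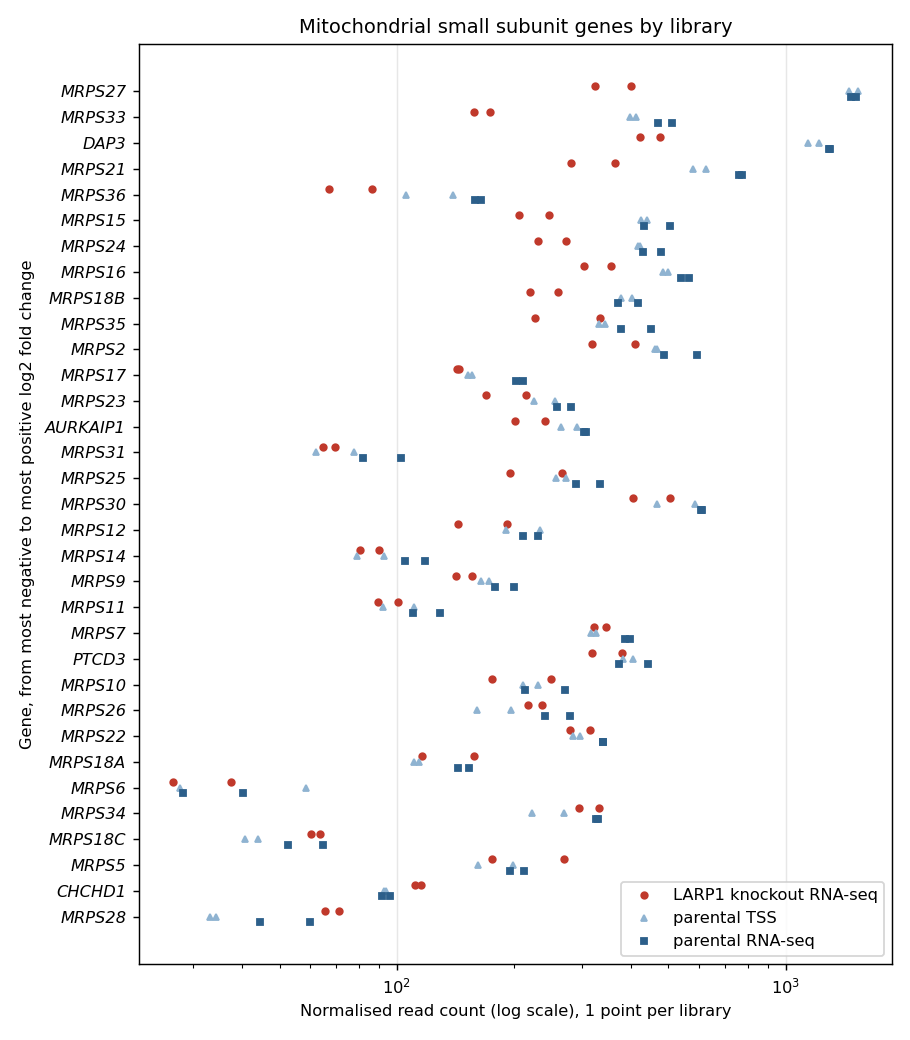
Normalised read count of each of the 33 genes (log axis), 1 point per library, for the 2 knockout RNA-seq libraries (circles), the 2 TSS libraries from parental RNA (triangles) and the 2 parental RNA-seq libraries (squares). MRPS27 shows the widest gap, at 399.5 and 323 in the knockout libraries against 1475 and 1521 in parental RNA-seq, and the points of MRPS34 and MRPS18C overlap.

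MRPS27 changed most. It encodes a pentatricopeptide repeat protein, a type of RNA-binding protein of organelles, and its gene lies on the minus strand at chr5:72219409-72320646 (GRCh38, GENCODE release 29). MRPS27 had 399.5 and 323 normalised reads in the knockout libraries, against 1475 and 1521 in parental RNA-seq. The TSS libraries held 1459.6 and 1538. Both knockout libraries were far below all 4 libraries of parental RNA, and the 2 preparations of that RNA gave nearly the same level. The means were 361 ± 54.1 in the knockout and 1498 ± 32.3 in parental cells (SD, n = 2 each), so 24.1% of the parental level remained. The log2 fold change was -2.06 (SE 0.17, adjusted p = 2.24e-33), and -1.75 after centring.

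DAP3, the subunit's GTP-binding protein, which was first described as a mediator of cell death, fell to 476 and 421 normalised reads in the knockout libraries, against 1291 and 1304 in the parental libraries. The TSS libraries gave 1139 and 1216. The groups did not overlap, and 34.6% of the parental level remained (log2 fold change -1.53, SE 0.17, adjusted p = 6.56e-19; -1.22 after centring). DAP3 lies on the plus strand at chr1:155687960-155739010. MRPS27 and DAP3 together made up 11.04% and 11.35% of all member reads in the knockout libraries, against 23.5% and 23.0% in the parental libraries.

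MRPS33, a small protein added in mitochondria, had 174 and 158 normalised reads in the knockout libraries, against 510.2 and 469 in the parental libraries. Both knockout libraries were well below both parental libraries and the TSS libraries, which held 397 and 412. Its log2 fold change was -1.56 (SE 0.19, adjusted p = 1.89e-14), and -1.24 after centring. MRPS21, which has a bacterial counterpart, had 365 and 281 in the knockout libraries, against 771 and 761 in the parental libraries. The groups were again apart, with TSS values of 577 and 625 between them (log2 fold change -1.25, SE 0.18, adjusted p = 1.99e-11; -0.94 after centring). GENCODE names 8 pseudogenes after MRPS21 and 3 after MRPS33, so their reads may be shared with near-identical copies and their levels are uncertain to that extent. The same limit holds for other called members with named pseudogenes. These are MRPS36 (5), MRPS17 (4), MRPS16 (3), DAP3, MRPS18B and MRPS35 (2 each) and MRPS15 (1).

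MRPS15, another protein with a bacterial counterpart, had 246 and 207 normalised reads in the knockout libraries, against 432 and 505 in the parental libraries (log2 fold change -1.05, SE 0.19, adjusted p = 3.81e-07; -0.74 after centring). MRPS24, the counterpart of a bacterial protein at the mRNA entry side of the subunit, had 273 and 231 in the knockout libraries, against 479 and 430.2 in the parental libraries. Its groups did not overlap (log2 fold change -0.85, SE 0.19, adjusted p = 4.91e-05). MRPS24 shares 23.2% of its exon bases with the readthrough gene URGCP-MRPS24 on the same strand, so reads could be split between them. MRPS16, also of bacterial descent, had 357 and 303 in the knockout libraries, against 538 and 566 in the parental libraries (log2 fold change -0.74, SE 0.18, adjusted p = 2.81e-04). Both were also called after centring, at -0.54 for MRPS24 and -0.43 for MRPS16. The call of MRPS24 was lost without parental replicate 1 (adjusted p = 0.0543), and that of MRPS16 without knockout replicate 2 (0.0502) or parental replicate 2 (0.0895). Both were also lost when the spread was not fitted to a trend over level (0.0503 for MRPS24 and 0.0677 for MRPS16).

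A further 5 calls were of smaller size or depended on the scaling. MRPS18B, 1 of 3 human relatives of a single bacterial protein, whose product sits at another site of the subunit than that protein, had 260.5 and 221 normalised reads in the knockout libraries, against 370.2 and 417 in the parental libraries, and was lower under both scalings (log2 fold change -0.71, adjusted p = 0.00128; -0.40 and adjusted p = 0.011 after centring). MRPS35 had 334 and 227 in the knockout libraries, against 378 and 452 in the parental libraries. MRPS2, of bacterial descent, had 411 and 318 in the knockout libraries, against 486 and 591 in the parental libraries. Both genes had no overlap between groups, with adjusted p of 0.00866 for MRPS35 and 0.00773 for MRPS2, but 0.101 and 0.08 after centring. MRPS17 had 144 and 143 in the knockout libraries, against 203 and 211 in the parental libraries, and MRPS23 had 215 and 170.0 in the knockout libraries, against 258 and 280.3 in the parental libraries. The adjusted p was just under the threshold, at 0.0482 for MRPS17 and 0.0499 for MRPS23, and was 0.275 and 0.295 after centring. MRPS17 shares 21.8% of its exon bases with another annotated gene on its strand and 5.19% with NIPSNAP2, also on its strand. All 5 calls were lost without knockout replicate 2 (adjusted p from 0.0869 for MRPS18B to 0.329 for MRPS35) and without parental replicate 2 (from 0.172 for MRPS18B to 0.427 for MRPS23). Without parental replicate 1 MRPS35, MRPS2, MRPS17 and MRPS23 were not called (from 0.0735 to 0.239), and without knockout replicate 1 MRPS17 and MRPS23 were not (0.0933 and 0.0529). Without the trend over level none of the 5 was called (0.0808 for MRPS18B and higher for the rest), and DESeq2 did not call them either (0.0838 for MRPS18B and higher for the rest).

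The 3 genes whose proteins are placed outside this subunit despite their symbols were counted with the rest. MRPS36 encodes a subunit of the 2-oxoglutarate dehydrogenase complex, while MRPS30 and MRPS18A encode proteins found in the large mitochondrial subunit. MRPS36 had 86.3 and 66.9 normalised reads in the knockout libraries, against 159 and 165 in the parental libraries, with no overlap (log2 fold change -1.08, SE 0.24, adjusted p = 5.15e-05; -0.77 and 0.0014 after centring). Its call was lost without knockout replicate 2 (adjusted p = 0.0582), and GENCODE names 5 pseudogenes after it. MRPS30 had 503 and 405 in the knockout libraries, against 607 and 609 in the parental libraries, and its call was lost after centring (adjusted p = 0.0477, and 0.406 centred). It was also lost without knockout replicate 2 (0.251), parental replicate 1 (0.316) or parental replicate 2 (0.388), without the trend over level (0.232), and by edgeR (0.36) and DESeq2 (0.661). MRPS18A had 158 and 116 in the knockout libraries, against 153 and 144 in the parental libraries, so its groups overlapped (log2 fold change -0.13, SE 0.22, adjusted p = 0.705). Without these 3 genes, 12 of the other 30 members were lower under the authors' scaling, against 25.1% of all genes.

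Of the 4 members without an MRPS symbol, only DAP3 was called. AURKAIP1, a small subunit protein also described as a partner of Aurora kinase A, had 241 and 202 normalised reads in the knockout libraries, against 303 and 307 in the parental libraries. The groups were apart but the test missed the threshold (log2 fold change -0.46, 95% interval -0.85 to -0.08, adjusted p = 0.0592). PTCD3, a second pentatricopeptide repeat protein of the subunit, had 379.7 and 318 in the knockout libraries, against 374 and 444 in the parental libraries. These values overlapped, and the log2 fold change was -0.23 (95% interval -0.59 to 0.13, adjusted p = 0.369). CHCHD1, a twin-cysteine protein, had 115 and 111 in the knockout libraries, against 91.5 and 96.3 in the parental libraries. Both knockout libraries were higher, with a log2 fold change of 0.27 (SE 0.24, adjusted p = 0.431), and the gene was called higher after centring (0.58, adjusted p = 0.0146).

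MRPS28 had 71.0 and 65.5 normalised reads in the knockout libraries, against 44.4 and 59.7 in the parental libraries, the most positive fold change of the 33 (0.40, SE 0.28, adjusted p = 0.299). After centring it was 0.71 with an adjusted p of 0.0209. MRPS28 shares 35.8% of its exon bases with another annotated gene on its strand. MRPS5, of bacterial descent, had 269.7 and 175 in the knockout libraries, against 195 and 212 in the parental libraries, so the knockout libraries lay on either side (0.10, adjusted p = 0.767; 0.41 and 0.0352 after centring). MRPS18C, another relative of MRPS18B, had 60.3 and 63.5 in the knockout libraries, against 52.5 and 64.6 in the parental libraries, with overlap. MRPS34 was nearest to no difference under the authors' scaling, with 332 and 295 in the knockout libraries, against 326 and 330.3 in the parental libraries (log2 fold change -0.07, 95% interval -0.44 to 0.30). After centring it stood at 0.24 (adjusted p = 0.115), with both knockout libraries above both parental libraries, and MRPS11 was nearest to 0 at -0.02. Exons of MRPS18A and MRPS18C overlap genes on the opposite strand over 47.0% and 40.2% of their bases, and the sources used here do not say whether strand was used in counting.

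The other uncalled members were MRPS31, MRPS25, MRPS12, MRPS14, MRPS9, MRPS11, MRPS7, MRPS10, MRPS26, MRPS22 and MRPS6. Their log2 fold changes ran from -0.44 to -0.09 with adjusted p from 0.073 for MRPS25 to 0.87 for MRPS6. MRPS6 was also the lowest member, at 37.4 and 26.6 normalised reads in the knockout libraries, against 28.3 and 40.2 in the parental libraries.

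**Figure D2:**
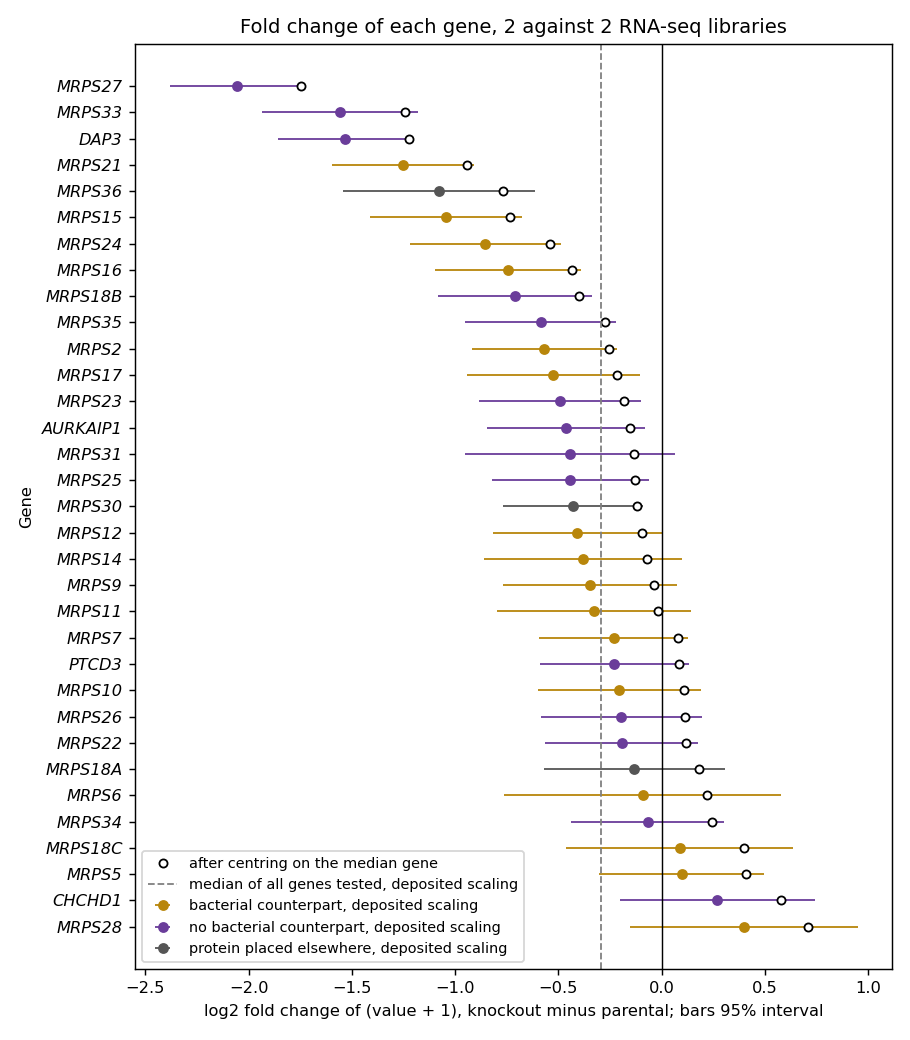
Log2 fold change, knockout minus parental, for each of the 33 genes: filled points with 95% intervals use the authors' scaling and are coloured by whether the protein has a bacterial counterpart, open points are centred on the median gene, and the dashed line is the median of all genes tested (-0.29). Fold changes run from -2.06 for MRPS27 to 0.40 for MRPS28, and both descent groups are spread over most of that range.

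Genes that fell were found among proteins of both origins. Among the 16 members with a bacterial counterpart, 6 fell (MRPS21, MRPS15, MRPS24, MRPS16, MRPS2 and MRPS17) and the median log2 fold change was -0.37. Among the 14 members without one, 6 fell (MRPS27, MRPS33, DAP3, MRPS18B, MRPS35 and MRPS23) and the median was -0.45. MRPS18B is counted in the second class because of the site of its product, and the counts depend on that placement. Over all genes 25.1% were called lower. After centring, 4 were lower in each class, against 16.2% of all genes. Then 2 of the 16 (12.5%) and 1 of the 14 (7.14%) were higher, both shares below the 14.6% of all genes. The difference between the classes was not tested.

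Levels were compared between members per kilobase of the median coding transcript length in GENCODE. The mean normalised count of MRPS27 was 264 per kilobase in the knockout, rank 6 of 33, against 1094 and rank 1 in parental cells. DAP3 had 270.2 and rank 4 in the knockout, against 782 and rank 2 in parental cells. MRPS24 took rank 1 in the knockout with 347, against 627 and rank 4 in parental cells, and MRPS34 took rank 2 in the knockout with 304, against 318 and rank 9 in parental cells. Neighbours among ranks 2 to 6 in the knockout differ by less than the spread between replicates. The highest member stood at 376 and 318 per kilobase in the knockout libraries, against 1078 and 1111 in the parental libraries. The standard deviation of log2 level per kilobase over the 33 members was 0.94 and 0.93 in the knockout libraries, against 1.27 and 1.18 in parental RNA-seq and 1.29 and 1.23 with TSS preparation. Levels of the members thus lay closer to each other in the 2 knockout libraries. Spearman's correlation of the log2 fold change with the parental level per kilobase was -0.61 over the 33 members. Both measures contain the parental values, so it is given as a description.

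The reads of the members together made up 0.163% and 0.153% of reads outside mitochondrial genes in the knockout libraries, against 0.129% and 0.132% in the parental libraries. Their summed normalised counts were 7929 and 6558 in the knockout libraries, against 11767 and 12301 in the parental libraries. The 2 measures run in opposite directions. In the knockout libraries the cytosolic small subunit proteins took 4.06% and 4.16% of those reads, against 11.7% and 11.7% in the parental libraries. MT-RNR1, the small subunit's ribosomal RNA, had 979784 and 875776 normalised reads in the knockout libraries, against 1836760 and 2942123 in the parental libraries (log2 fold change -1.33, SE 0.23, adjusted p = 1.54e-07). It was not called after centring (-1.02, adjusted p = 0.0587). RNA was depleted of ribosomal RNA before sequencing, and the part of that step in this value was not tested.

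The large mitochondrial subunit was the group most alike in build. Of its 49 genes with an MRPL symbol, 20 (40.8%) fell and 0 rose, against 25.1% lower and 3.77% higher over all genes. Their median log2 fold change was -0.44. MRPS30 and MRPS18A were counted among the members instead. After centring 16 (32.7%) were lower and 6 (12.2%) higher, against 16.2% and 14.6% of all genes, with a median of -0.13. MRPL45, the membrane-facing protein of the large subunit, had 199 and 155 normalised reads in the knockout libraries, against 1109 and 1179 in the parental libraries (log2 fold change -2.70, adjusted p = 1.14e-49). MRPL10 fell by 1.78 and MRPL53 fell by 1.44 on the log2 scale. The cytosolic small subunit, whose mRNAs are the classic TOP mRNAs, moved further, as 31 of 32 genes fell, with a median of -2.73, or -2.42 after centring. No member of the mitochondrial small subunit fell as far as the median cytosolic one.

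**Figure D3:**
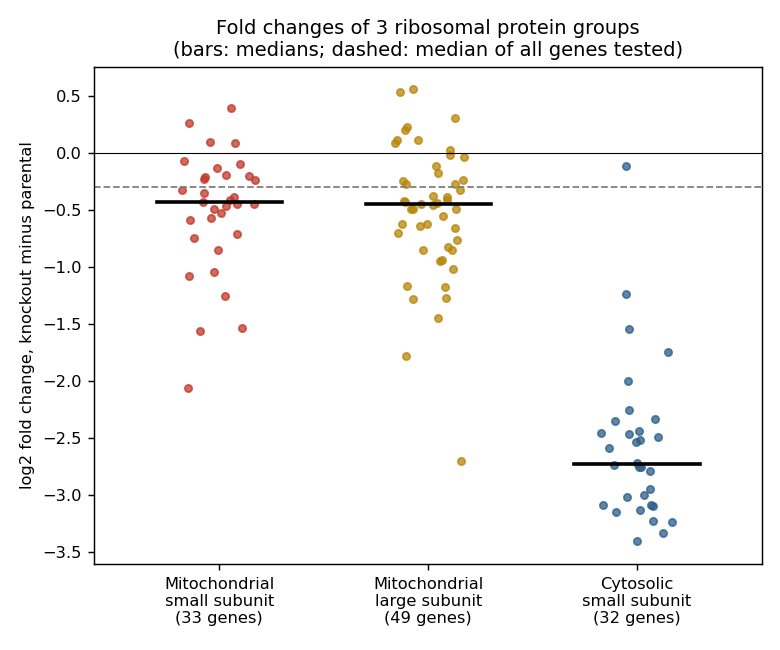
Log2 fold change, knockout minus parental, of each gene in the groups mitochondrial small subunit (33 genes), mitochondrial large subunit (49) and cytosolic small subunit (32). A bar marks each median and a dashed line the median of all genes tested. MRPS18A, MRPS30 and MRPS36 are plotted in the first group although their proteins are placed elsewhere. The medians are -0.43, -0.44 and -2.73, and both mitochondrial groups have a long lower tail.

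Genes for mitochondrial ribosome assembly, translation and mRNA handling were counted in 3 lists, which are not confined to the small subunit. MRPL58 was counted both in the large subunit and among the translation factors. Of 11 assembly and ribosomal RNA modification factors, 4 (36.4%) fell and 0 rose, with a median of -0.31, against 25.1% and 3.77% of all genes. After centring 4 were lower and 2 (18.2%) higher, against 16.2% and 14.6% of all genes, and the median was -0.0015. YBEY is an RNA processing factor of the small subunit. It had 43.5 and 36.2 normalised reads in the knockout libraries, against 236 and 296 in the parental libraries (log2 fold change -2.70, adjusted p = 2.12e-27). NOA1, a GTPase of mitochondrial ribosome assembly, had 193 and 136 in the knockout libraries, against 1058 and 1016 in the parental libraries (log2 fold change -2.67, adjusted p = 1.99e-47). The methyltransferase TFB1M fell by 1.35. Of 13 mitochondrial translation factors in the table, 6 (46.2%) fell and 0 rose, with a median of -0.43, and after centring 5 (38.5%) were lower and 0 higher, with a median of -0.12. The ribosome recycling factor MRRF had 285 and 274 in the knockout libraries, against 1304 and 1308 in the parental libraries (log2 fold change -2.22, adjusted p = 6.53e-37). The initiation factor MTIF2 fell by 1.29 and the elongation factor TUFM fell by 1.06. Of 7 genes for mRNA handling and membrane insertion, 2 (28.6%) fell, a share near the 25.1% of all genes. They were the insertase OXA1L, which fell by 2.20, and the RNA-binding protein LRPPRC, which fell by 1.30 on the log2 scale, and both were also lower after centring.

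TOP-like starts were found in 3 of the 32 members with an entry (9.38%), a share near that of all tested protein-coding genes given below. The 3 members with one, MRPS27, MRPS33 and MRPS2, were all called lower, and so were 11 of the 29 members whose entries held none. After centring, 2 of the 3 and 7 of the 29 were lower. Among all tested protein-coding genes with an entry, 719 of 9659 (7.44%) had a TOP-like start, and 51.3% of these were called lower, against 23.7% of the rest. After centring these shares were 41.4% and 14.6%. Over all entries in the table the share with a TOP-like start was 4.07%, and 3 of the 39 entries of members had one. In GENCODE, 1 of 5 coding transcripts of MRPS27, 1 of 6 of DAP3 and 1 of 4 of MRPS22 began with a TOP-like start, so the annotations differ for DAP3, MRPS33, MRPS2 and MRPS22. Such starts were found in 3 of 33 members (9.09%) and in 7.55% of all tested protein-coding genes. The annotated letters describe these windows only, and whether a start is used in HCT116 cells was not tested.

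**Figure D4:**
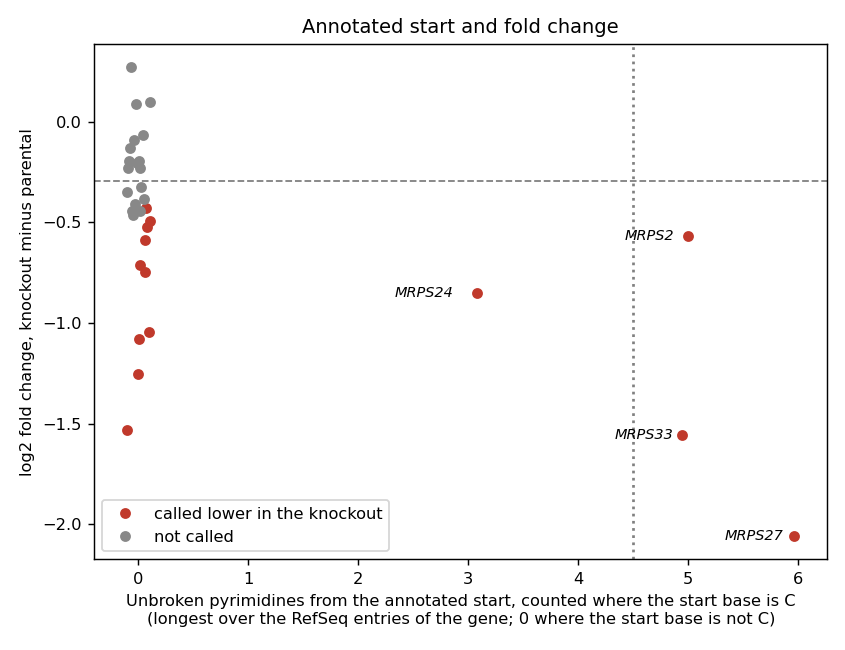
Log2 fold change, knockout minus parental, of the 32 members with a RefSeq entry against the number of unbroken C and T bases from the annotated start, counted where the first base is C (longest entry per gene; points are shifted slightly sideways). Red points are called lower, and the dotted line separates TOP-like starts: MRPS27, MRPS33 and MRPS2 lie to its right, while most called members lie at 0.

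The TSS libraries, made from the same parental RNA, gave most members a somewhat lower level than parental RNA-seq did. The ratio of the mean TSS value to the mean parental RNA-seq value ran from 0.648 in MRPS28 to 1.26 in MRPS6, and was 1.00 in MRPS27. With the TSS libraries in place of the parental RNA-seq libraries, 9 members were lower, against 3121 of the 14561 genes tested. The members' median log2 fold change was then -0.21, in place of -0.43. The 1 higher member was MRPS28 (log2 fold change 0.99), against 922 higher genes in all.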

How the data were processed

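Non-polysomal RNA was sequenced as 2 knockout, 2 parental and 2 parental TSS libraries. The submitters' processing notes name STAR 2.6, RSEM, SAMtools, DESeq2 and the build GRCh38. Not given in the sources used here are the annotation release and whether strand was used. The authors deposited, for 14574 genes, a signal equal to gene reads divided by 1 size factor per library. In every library 100% of values were whole multiples of 1 read within 0.001 reads, so reads were recovered. Per the file headers the same deposited table gives the authors' log2 fold change, its linear fold (ratio), a test score, p-values and a −log10 adjusted p. Relative to median-of-ratios factors the authors' factors were off by 0.04 and 0.29 (log2) in the knockout, and by -0.09 and -0.19 in parental cells, which lowers knockout values; centring takes the median log2 value of the library away.

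The 14561 genes at 1 or more in 2 or more of the compared libraries were tested with limma-trend (limma 3.58.1, R 4.3.3) on log2(value + 1), two-sided, by genotype alone; this scale understates changes of low genes. limma estimated infinite prior degrees of freedom and so took every spread from its trend. With 2 against 2 libraries, an exact permutation p cannot go below 0.333. edgeR 4.0.16 and DESeq2 1.42.0 were run on recovered reads. The limma step was tested on simulated counts in which equal numbers of genes rose and fell and no scaling shift was set. That check does not cover the unequal changes or the scaling seen here. Replicates differed by more than sampling noise and were kept apart. Labels call the replicates biological. Reads are not counted by molecule. Identifiers matched GENCODE 29 for 14535 genes (99.7%) and for all 33 members.

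The members and lists were chosen with earlier results of these data known. Kinases named RPS6K, RPS19BP1 and readthrough genes were left out of the cytosolic list after the table was seen. Named genes were all members, with library values for each called member, the 4 without an MRPS symbol, relatives of MRPS18B, MRPS30, MRPS36, the 3 highest per kilobase and the nearest to 0, plus MT-RNR1, LARP1 and up to 3 called genes per other list; MRPS28, MRPS5, MRPS6 and the markers were added after their values were seen.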

Additional observations from a re-analysis of the deposited data

How the results depend on the processing

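Both scaling and the estimate of the spread moved the counts, and so did leaving out a library. Against 14 lower and 0 higher members with a median of -0.43, and 3649 lower and 549 higher genes in all, centring gave 9, 3, -0.12, 2365 and 2119; TMM factors gave 9 lower and 3 higher members, a median of -0.13 and 1976 higher genes; edgeR gave 10 lower and 3 higher members, -0.13 and 2130 higher genes; DESeq2 gave 8 lower members, -0.13, and 1557 lower and 983 higher genes. Without the intensity trend 6 members were lower, with 1962 lower and 282 higher genes. Keeping only calls whose estimated log2 change was 1 or more in either direction left 6 lower members, 1803 lower genes and 274 higher genes. That step was a cutoff on the estimates and not a test against that size. TSS libraries in place of parental RNA-seq libraries gave 9 lower and 1 higher member and 922 higher genes, and the mean of both preparations gave 1 higher member. With 1 library left out, the lower members ran from 6 to 12, lower genes from 1233 to 2416 and higher genes from 116 to 389. Leaving out the filter, requiring 5 in all libraries and pseudocounts of 0.1 and 5 kept all 5 values within 1.5 times.

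Of the 14 calls, MRPS27, MRPS33, DAP3, MRPS21 and MRPS15 held in all 16 alternatives that could change a call. Same-numbered libraries did not deviate together (correlation -0.02 over 14561 genes), so the numbers were not treated as pairs; with a replicate block 11 members were lower and 0 higher, with 2771 lower and 388 higher genes.

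Reversed signs touched uncalled members alone. After centring, with TMM factors, by edgeR and by DESeq2, in that order, the log2 fold changes were 0.078, 0.064, 0.065 and 0.072 for MRPS7; 0.082, 0.068, 0.063 and 0.071 for PTCD3; 0.11, 0.091, 0.087 and 0.097 for MRPS10; 0.11, 0.10, 0.099 and 0.10 for MRPS26; 0.12, 0.10, 0.10 and 0.11 for MRPS22; 0.18, 0.16, 0.17 and 0.17 for MRPS18A; 0.22, 0.20, 0.18 and 0.20 for MRPS6; and 0.24, 0.23, 0.23 and 0.24 for MRPS34. Against TSS libraries they were 0.051 for MRPS7, 0.35 for MRPS26, 0.028 for MRPS22, 0.27 for MRPS18A and 0.35 for MRPS34, and against the mean of both preparations 0.045 for MRPS26, 0.055 for MRPS18A and 0.13 for MRPS34. With 1 library left out the range was -0.46 to 0.046 for MRPS10, -0.35 to 0.089 for MRPS18A, -0.34 to 0.15 for MRPS6, -0.15 to 0.015 for MRPS34, -0.060 to 0.23 for MRPS18C and -0.21 to 0.40 for MRPS5. The cause was not tested. At 21 reads for the lowest member, differences of the size seen for most members were not detectable there.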
